A study of Mus spretus with 12 samples.

Results

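Collagens are the main structural proteins of the matrix between cells. The collagen genes described here are those with a spot on the array whose gene name has the form Col, a number, a and a number. Of 44 such genes, 24 were kept, because a probe of theirs (a short DNA strand printed on the array) gave a signal well above background on each of the 4 arrays in one group or more. They were measured by 32 of 91 collagen probes, and 18678 genes in all passed the same filter. The members and the gene lists below were chosen with earlier results of these data known.

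Liver RNA came from male mice of SPRET/EiJ, a wild-derived inbred strain of Mus spretus, aged 22 months at sampling. Each of 12 one-colour Agilent arrays held 1 liver sample. The control group ate Teklad rodent diet with corn oil for 60 days. The DDE group ate the same diet with p,p'-DDE, a lasting breakdown product of the insecticide DDT, at 450 mg/kg of feed. The PXDDE group had the feed of the DDE group and, in its drinking water, must (unfermented juice) of Pedro Ximenez grapes. That water held 85 mg/L of polyphenols and 31 g/L of sugar as glucose and fructose in equal parts, so DDE and PXDDE differed in sugar as well as in polyphenols. No array had must without p,p'-DDE. The series was set up around protection of the liver by must, and here DDE against control asks what p,p'-DDE changed and PXDDE against DDE what the must changed on top of it. Both comparisons use the same 4 DDE arrays, and PXDDE against control shares arrays with each, so their values are set side by side only.

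In liver, fibrillar collagens (types I, III, V and XXVII among the kept genes) form the tensile fibres of the portal tracts and of scars, and are made mostly by hepatic stellate cells and portal fibroblasts. Basement membrane collagens (types IV, VII, XV and XVIII) form or anchor sheet-like layers under vessels and ducts. Beaded filament, fibril-associated (FACIT), short chain and transmembrane collagens link these networks to each other and to cells. All carry the collagen repeat, in which glycine is followed by a pair of other residues, over and over.

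That repeat can be read in some of the probes, which are 60 bases long. A run of at least 5 glycine codons in one frame (GGN, with any 6 bases between them, so GGNNNNNNN repeated) was present in 6 of the 91 collagen probes, 6.59%, against 16 of all 56605 probes, 0.0283%. On the other strand it was found in 0 collagen probes and in 6 of all probes, 0.0106%. The 5 that belong to kept genes are shown because the kept ones among them, those of Col5a3 and Col15a1, measured the repeat itself. The sequences are those given in the scanner files, 5′ to 3′, and capitals mark the glycine codons.
Col5a3 (kept): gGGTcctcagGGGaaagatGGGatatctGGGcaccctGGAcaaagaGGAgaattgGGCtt
Col15a1 (kept): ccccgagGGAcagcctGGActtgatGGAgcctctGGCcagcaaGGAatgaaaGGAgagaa
Col6a3: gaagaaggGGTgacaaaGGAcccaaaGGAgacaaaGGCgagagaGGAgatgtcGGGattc
Col16a1: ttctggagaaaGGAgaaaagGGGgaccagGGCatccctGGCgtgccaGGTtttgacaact
Col22a1: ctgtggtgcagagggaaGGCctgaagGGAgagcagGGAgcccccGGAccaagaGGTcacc
In build mm9, named in the file headers, the Col5a3 probe lay at chr9:20590066-20590795 and the Col15a1 probe at chr4:47283786-47283845. The Col5a3 probe matched 60 bases spread over 730 bases of the chromosome, so it crosses from one exon to another, whereas the Col15a1 probe lay in 60 unbroken bases. The Col6a3, Col16a1 and Col22a1 probes shown were not well above background on all 4 arrays of any group, and those genes were measured by other probes. Which of the other collagen probes lie in coding or untranslated sequence was not analysed here.

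All levels below are log2 of the spot's processed signal relative to its array's 75th percentile, so a level of 0 is the brightness of that percentile. Levels of different genes are not comparable, because each has its own probe. Between 50.12% and 52.01% of spots were well above background on each array, and 0 collagen spots were saturated. The 75th percentile itself was 535.1 ± 32.2 intensity units in control, 610.8 ± 46.9 in DDE and 702.2 ± 7.63 in PXDDE (SD, n = 4 each). Arrays of a group correlated at 0.9951 to 0.9974 across the genes that passed the filter. The median spread within groups was 0.102 for the collagen genes and 0.109 for all genes. Nothing in the labels says more about how arrays of a group relate than that each is a replicate, so p-values measure the spread between these arrays, which may be partly technical. A gene is called higher or lower at an adjusted p under 0.05 in limma, with Benjamini-Hochberg adjustment over all 18678 genes.

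In DDE livers, 9 of the 24 collagen genes were higher than in control and 3 were lower. Over all genes tested, 24% were called higher and 26.3% lower. The median change of the collagen genes was 0.19, against -0.02 over all genes. The 4 DDE and 4 control values did not overlap for 10 collagen genes, which compares with 46.4% of all genes. In PXDDE against DDE, 11 collagen genes were higher and 5 lower, with a background of 20.2% and 29.7%. The median collagen change was 0.18 against -0.04 over all genes, and the groups did not overlap for 16 collagen genes, against 44.7% of all genes. In PXDDE against control, 14 were higher and 2 lower, with a background of 31.6% and 39.3%. There the median was 0.31 against -0.06, and 13 collagen genes did not overlap between groups, against 65.2% of all genes. The counts without overlap were at or below the background in DDE against control and PXDDE against control. Of the called genes in DDE against control, 75% of the collagen genes and 47.7% of all genes were higher, in PXDDE against DDE 68.8% and 40.6%, and in PXDDE against control 87.5% and 44.5%. These are descriptions of the list. The counts include Col15a1 and Col22a1, which passed the filter through PXDDE alone; without this pair, a choice made after their values were seen, 9 were higher and 2 lower in DDE against control, 10 and 5 in PXDDE against DDE, and 14 and 2 in PXDDE against control. With each array centred on its median instead, all genes moved by a median of 0.21, 0.10 and 0.32 in the 3 comparisons. There 16 collagen genes were higher and 0 lower in DDE against control, 12 and 5 in PXDDE against DDE, and 21 and 0 in PXDDE against control. Of all 18678 genes, 9019 were then higher and 2078 lower, 6476 and 3295, and 10315 and 3802. Much of that tilt to higher was thus shared by genes in general. Quantile normalisation gave 13 higher and 2 lower in DDE against control and 17 and 0 in PXDDE against control, beside 4780 and 4335, and 7044 and 6152, of all genes. The deposited values gave 12 and 2, and 17 and 0, beside 4466 and 4125, and 6880 and 5942, of all genes. With normexp background correction the split was 10 higher and 2 lower in DDE against control, 8 and 6 in PXDDE against DDE, and 13 and 5 in PXDDE against control. Of all genes, 4431 were higher and 5230 lower there, then 3792 and 6478, and 5668 and 8318.

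The genes fell into different patterns over the 2 successive comparisons. Higher in DDE and then lower in PXDDE than in DDE were 5 genes, Col1a1, Col1a2, Col3a1, Col6a5 and Col16a1. Higher in both were 3 genes, Col4a1, Col9a2 and Col18a1. Lower in DDE and then higher in PXDDE were Col5a3 and Col27a1. The fit also put Col15a1 there, but its fitted fall lies between control and DDE arrays that were all dim, so it is not taken as a gene of that pattern. Called higher only in the second comparison were 5, Col4a2, Col5a1, Col6a1, Col6a2 and Col8a1, which does not show that their change differed between the comparisons. Col14a1 was called only in the first, and 7 genes in neither. Since the comparisons share the DDE arrays, a deviation of those arrays would move a gene in opposite directions in them.

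**Figure D1:**
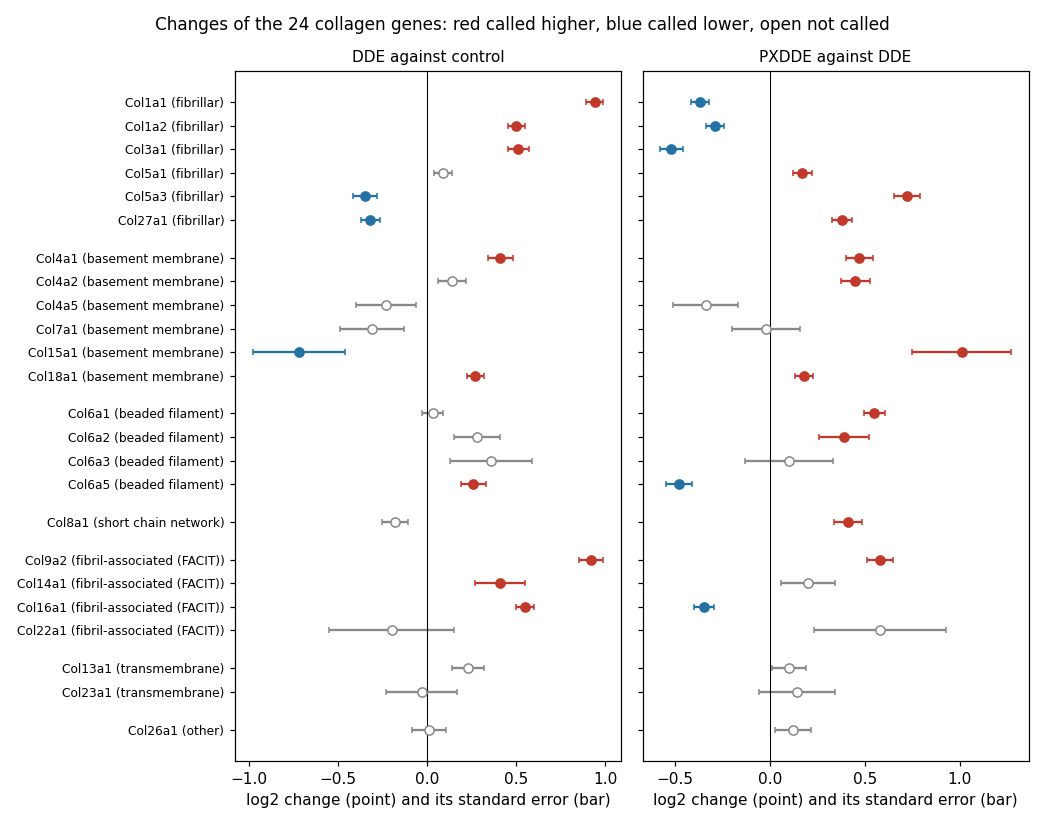
Change of each of the 24 collagen genes (log2, points) with its standard error (bars), grouped by class, for DDE against control on the left and PXDDE against DDE on the right. Red points were called higher, blue called lower and open points not called; Col1a1, Col1a2 and Col3a1 are red on the left and blue on the right, and Col5a3 and Col27a1 the reverse.

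Among the fibrillar collagens, 6 of 11 genes on the array were kept. In DDE against control 3 were higher and 2 lower, and in PXDDE against DDE 3 were higher and 3 lower, so that all 6 were called there. Class counts here and below stand beside the shares over all genes, 24% higher and 26.3% lower, then 20.2% and 29.7%. The type I chains Col1a1 and Col1a2 build the most common fibre of scar and tendon. Col1a1 read -1.52, -1.51, -1.46 and -1.39 on the control arrays, -0.55, -0.50, -0.54 and -0.54 on the DDE arrays, and -0.80, -0.91, -0.98 and -0.91 on the PXDDE arrays. Every DDE array was above every PXDDE array, and every PXDDE array above every control array. The level was 1.92-fold higher in DDE than in control (log2 change 0.94 ± 0.047 SE, adjusted p = 3.87e-08) and 1.29-fold lower in PXDDE than in DDE (-0.37 ± 0.047, adjusted p = 7.13e-05). It was still 1.49-fold higher in PXDDE than in control (adjusted p = 6.99e-07).

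Col1a2, the partner chain of Col1a1, read 0.94, 0.90, 0.91 and 1.01 in control, 1.56, 1.43, 1.39 and 1.36 in DDE, and 1.18, 1.12, 1.13 and 1.15 in PXDDE. The 3 groups again stood in the same order without overlap. DDE was 1.41-fold above control (0.50 ± 0.049, adjusted p = 9.63e-06), PXDDE was 1.22-fold below DDE (-0.29 ± 0.049, adjusted p = 0.000498), and PXDDE was 1.15-fold above control (adjusted p = 0.00264). Col3a1, the chain of the fine reticular fibres of liver, read 1.20, 1.1, 1.13 and 1.1 in control, 1.56, 1.64, 1.71 and 1.65 in DDE, and 1.09, 1.22, 0.98 and 1.21 in PXDDE. The DDE arrays stood above all others, and the PXDDE and control arrays overlapped. Its level was 1.42-fold higher in DDE than in control (0.51 ± 0.059, adjusted p = 3.63e-05) and 1.43-fold lower in PXDDE than in DDE (-0.52 ± 0.059, adjusted p = 3.17e-05). The change in PXDDE against control was -0.01 ± 0.059 (adjusted p = 0.92), but 0.37 with median centring, where Col3a1 was called higher.

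The 2 kept type V chains and Col27a1 did otherwise. Col5a1, a chain that joins type I fibrils and limits their width, read -0.74, -0.82, -0.77 and -0.77 in control, -0.72, -0.81, -0.62 and -0.61 in DDE, and -0.53, -0.54, -0.47 and -0.53 in PXDDE. All PXDDE arrays were above the others, while DDE and control overlapped. The change was 0.09 ± 0.049 in DDE against control (adjusted p = 0.151), where median centring, quantile normalisation or leaving out DDE array 2 gave a call, and 0.17 ± 0.049 in PXDDE against DDE (adjusted p = 0.014), which normexp background correction did not call. Col5a3, a rarer chain of type V collagen, read 3.15, 3.36, 3.41 and 3.44 in control, 3.01, 2.96, 2.90 and 3.10 in DDE, and 3.68, 3.78, 3.74 and 3.66 in PXDDE. The 3 groups did not overlap, with DDE lowest and PXDDE highest. DDE was 1.27-fold below control (-0.35 ± 0.068, adjusted p = 0.00129) and PXDDE 1.65-fold above DDE (0.72 ± 0.068, adjusted p = 6.36e-06).

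Col27a1, a fibrillar chain best known from cartilage, read 0.13, -0.02, 0.03 and 0.10 in control, -0.32, -0.29, -0.24 and -0.20 in DDE, and 0.02, 0.21, 0.08 and 0.17 in PXDDE. The DDE arrays were below all others, and control and PXDDE overlapped. DDE was 1.25-fold below control (-0.32 ± 0.054, adjusted p = 0.000511) and PXDDE 1.30-fold above DDE (0.38 ± 0.054, adjusted p = 0.000145). With median centring the falls of Col5a3 (-0.12) and Col27a1 (-0.09) in DDE against control kept their sign and were not called. Within the slide that held control array 1 and DDE array 4, Col5a3 differed by -0.05, against -0.45 and -0.46 within the other slides that held both groups. Col2a1, Col5a2, Col11a1, Col11a2 and Col24a1 were not well above background on all 4 arrays of any group.

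**Figure D2:**
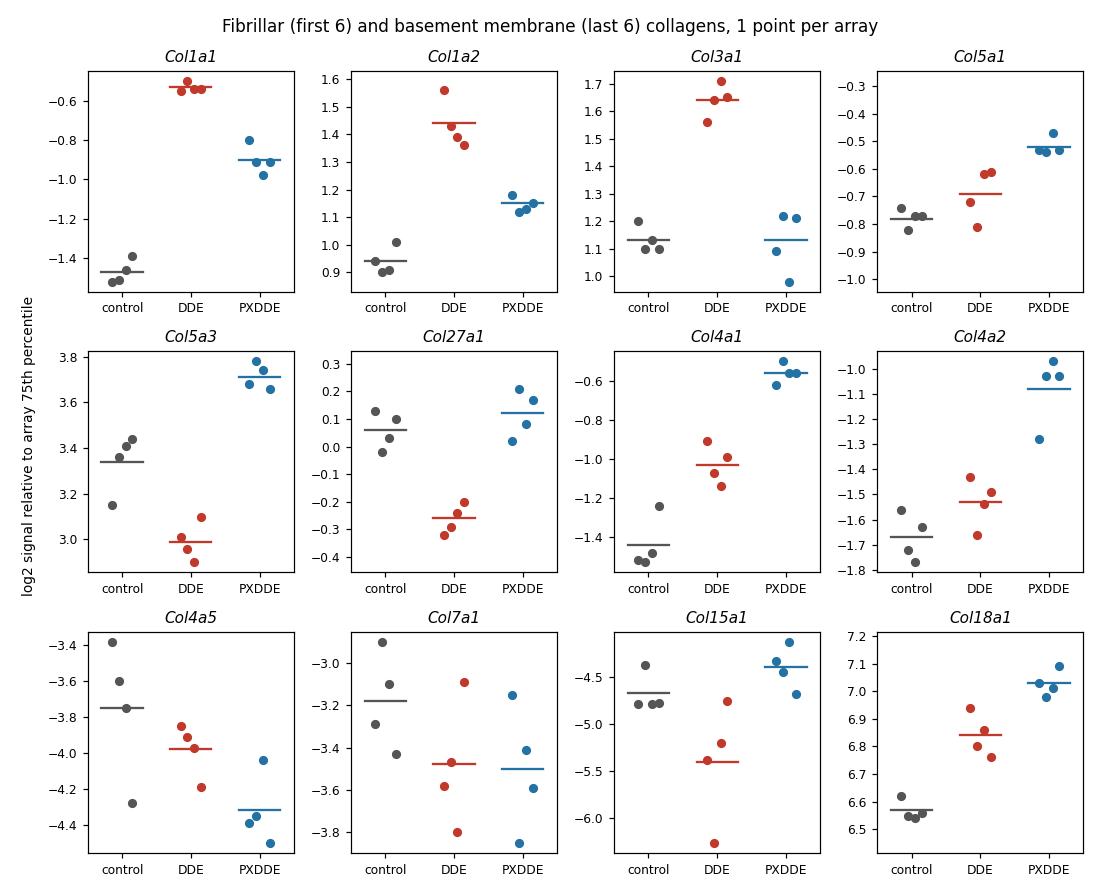
Level of each kept fibrillar gene (first 6 panels) and basement membrane gene (last 6 panels) on every array, as log2 signal relative to the array's 75th percentile; points are arrays and lines are group means, n = 4 per group. Col1a1, Col1a2 and Col3a1 are highest in DDE, Col5a3 and Col27a1 lowest in DDE, and Col4a1, Col4a2 and Col18a1 highest in PXDDE.

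Of the basement membrane collagens, 6 of 9 genes were kept. In DDE against control 2 were higher and 1 lower, and in PXDDE against DDE 4 were higher and 0 lower. The lower gene of the first comparison and 1 of the 4 in the second were Col15a1, which was dim in control and DDE. In PXDDE against control 3 were higher and 1 lower, beside 31.6% and 39.3% of all genes. Col4a1 and Col4a2, whose genes lie head to head on chromosome 8 and whose chains make the common type IV network, were both highest in PXDDE. Col4a1 read -1.52, -1.53, -1.48 and -1.24 in control, -0.91, -1.07, -1.14 and -0.99 in DDE, and -0.62, -0.50, -0.56 and -0.56 in PXDDE. Each group stood apart, in the order control, DDE, PXDDE. DDE was 1.33-fold above control (0.41 ± 0.071, adjusted p = 0.00058), PXDDE 1.38-fold above DDE (0.47 ± 0.071, adjusted p = 0.000231) and PXDDE 1.84-fold above control (adjusted p = 5.39e-07).

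Col4a2 read -1.56, -1.72, -1.77 and -1.63 in control, -1.43, -1.66, -1.54 and -1.49 in DDE, and -1.28, -1.03, -0.97 and -1.03 in PXDDE. Control and DDE overlapped, and all PXDDE arrays were above both. The change was 0.14 ± 0.078 in DDE against control (adjusted p = 0.15), and 4 alternatives (quantile normalisation, median centring, both background correction and quantile normalisation, and the deposited values) called it higher. PXDDE was 1.37-fold above DDE (0.45 ± 0.078, adjusted p = 6e-04) and 1.51-fold above control (adjusted p = 3.15e-05). Col18a1, whose protein is cut to release endostatin and which hepatocytes make, read 6.62, 6.55, 6.54 and 6.56 in control, 6.94, 6.80, 6.86 and 6.76 in DDE, and 7.03, 6.98, 7.01 and 7.09 in PXDDE. The groups did not overlap, in the order control, DDE, PXDDE. DDE was 1.21-fold above control (0.27 ± 0.048, adjusted p = 0.000679) and PXDDE 1.14-fold above DDE (0.18 ± 0.048, adjusted p = 0.00724), which made 1.37-fold between PXDDE and control (adjusted p = 4.73e-06).

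The remaining basement membrane genes were dimmer. Col4a5, a type IV chain best known from the kidney filter, read -3.38, -3.60, -3.75 and -4.28 in control, -3.85, -3.91, -3.97 and -4.19 in DDE, and -4.39, -4.35, -4.04 and -4.50 in PXDDE. The groups overlapped in each comparison, and its probe was well above background on 3 control arrays and on all DDE and PXDDE arrays. The changes of -0.23 ± 0.17 (adjusted p = 0.287) in DDE against control and -0.34 ± 0.17 (adjusted p = 0.118) in PXDDE against DDE were not called, and PXDDE was 1.48-fold below control (-0.56 ± 0.17, adjusted p = 0.0105), a call that quantile normalisation, median centring, both background correction and quantile normalisation, and the deposited values each lost. Col7a1, the chain of anchoring fibrils, read -3.29, -2.90, -3.10 and -3.43 in control, -3.58, -3.47, -3.80 and -3.09 in DDE, and -3.15, -3.85, -3.41 and -3.59 in PXDDE. Its groups overlapped and no comparison was called (changes of -0.31 ± 0.18, -0.02 ± 0.18 and -0.32 ± 0.18, adjusted p = 0.173, 0.942 and 0.123), and each of these changes turned its sign in 1 alternative or more.

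Col15a1, a basement membrane zone collagen of vessels, read -4.78, -4.37, -4.78 and -4.77 in control, -5.38, -6.26, -5.20 and -4.75 in DDE, and -4.32, -4.44, -4.12 and -4.68 in PXDDE. This is the repeat probe printed above, and it was well above background on 0 control, 0 DDE and 4 PXDDE arrays, so the gene passed through PXDDE only. Taking the dim arrays at the lowest signal that counted as well above background, the fold of PXDDE over DDE had a lower bound of 1.19 (fitted change 1.01 ± 0.26, adjusted p = 0.00732). Since the filter kept the gene through its PXDDE signal, these values are no test of a rise in PXDDE. The fitted change against DDE was -0.01 with normexp background correction. Against control PXDDE changed by 0.28 ± 0.26 (adjusted p = 0.344), and those groups overlapped. The fitted fall in DDE against control (-0.72 ± 0.26, adjusted p = 0.0366) lies between groups that were both dim, so no fold is given, and 15 of the 20 alternatives that could be run for it did not call it. Col4a3, Col4a4 and Col4a6 were not well above background on all 4 arrays of any group.

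Among beaded filament collagens 4 of 6 were kept. Col6a1 and Col6a2, chains of the type VI microfibrils that surround cells, were higher in PXDDE than in DDE. Col6a1 read 0.25, 0.30, 0.21 and 0.40 in control, 0.41, 0.22, 0.26 and 0.36 in DDE, and 0.81, 0.90, 0.92 and 0.81 in PXDDE. Control and DDE overlapped and PXDDE stood above both. PXDDE was 1.46-fold above DDE (0.55 ± 0.057, adjusted p = 1.48e-05), and the change in DDE against control was 0.03 ± 0.057 (adjusted p = 0.732), called higher with median centring only. Col6a2 read -2.70, -2.78, -3.00 and -2.42 in control, -2.36, -2.75, -2.35 and -2.33 in DDE, and -2.24, -1.97, -2.05 and -1.97 in PXDDE. PXDDE was above DDE without overlap, and DDE and control overlapped.

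Col6a2 was 1.31-fold higher in PXDDE than in DDE (0.39 ± 0.13, adjusted p = 0.0236), a call lost without DDE array 2, without PXDDE array 2, without PXDDE array 4 and with normexp background correction. Its change in DDE against control was 0.28 ± 0.13 (adjusted p = 0.0906), and leaving out control array 4 or DDE array 2, the slide as a block and 4 of the scaling alternatives called it higher. Col6a5, a less common type VI chain, moved otherwise. It read -1.41, -1.40, -1.61 and -1.55 in control, -1.22, -1.14, -1.26 and -1.32 in DDE, and -1.64, -1.80, -1.60 and -1.80 in PXDDE. DDE stood above both other groups, which overlapped. DDE was 1.20-fold above control (0.26 ± 0.068, adjusted p = 0.008) and PXDDE 1.39-fold below DDE (-0.48 ± 0.068, adjusted p = 0.000158). Against control PXDDE was 1.16-fold lower (-0.22 ± 0.068, adjusted p = 0.0138), but that change was 0.16 with median centring and 0.01 in the deposited values.

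The fibril-associated collagens sit on the surface of fibrils, and 4 of 9 were kept. Of these, 3 were higher in DDE than in control and 0 lower. Col9a2, a chain of type IX collagen best known from cartilage, read -0.34, -0.22, -0.43 and -0.37 in control, 0.70, 0.50, 0.64 and 0.50 in DDE, and 1.02, 1.20, 1.21 and 1.24 in PXDDE. The groups did not overlap, in the order control, DDE, PXDDE. DDE was 1.90-fold above control (0.92 ± 0.069, adjusted p = 1.08e-06), PXDDE 1.5-fold above DDE (0.58 ± 0.069, adjusted p = 3.76e-05), and PXDDE 2.84-fold above control (1.51 ± 0.069, adjusted p = 6.22e-09), the largest change of a collagen gene in any of the 3 comparisons. Of 10 cartilage and bone markers only 5 passed the filter, Acan, Matn1, Matn3, Ibsp and Bglap did not, and of the 5, 1 (Alpl, a phosphatase that liver also makes) was higher in DDE than in control and 0 were called in PXDDE against DDE.

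Col16a1, a fibril-associated chain of many connective tissues, read 0.29, 0.48, 0.29 and 0.41 in control, 0.90, 0.83, 0.96 and 0.98 in DDE, and 0.57, 0.56, 0.57 and 0.59 in PXDDE. The groups did not overlap, with DDE highest and control lowest. DDE was 1.47-fold above control (0.55 ± 0.052, adjusted p = 7.64e-06) and PXDDE 1.27-fold below DDE (-0.35 ± 0.052, adjusted p = 0.000245). Col14a1, which binds type I fibrils, read -2.21, -1.78, -1.75 and -1.54 in control, -1.71, -1.41, -1.19 and -1.32 in DDE, and -1.32, -1.12, -1.18 and -1.21 in PXDDE. Only PXDDE and control did not overlap. DDE was 1.33-fold above control (0.41 ± 0.14, adjusted p = 0.0273), a call lost without control array 1, without DDE array 2, 3 or 4, and with only the groups compared in the fit. PXDDE was 1.53-fold above control (adjusted p = 0.00199), and the change against DDE was 0.20 ± 0.14 (adjusted p = 0.264).

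Col8a1, a short chain collagen of the layers under vessel endothelium, read -1.79, -1.71, -1.75 and -1.66 in control, -1.68, -1.99, -2.06 and -1.90 in DDE, and -1.52, -1.48, -1.53 and -1.46 in PXDDE. PXDDE was above the other groups, which overlapped. PXDDE was 1.33-fold above DDE (0.41 ± 0.072, adjusted p = 0.000718) and 1.17-fold above control (adjusted p = 0.0139), where normexp background correction lost the call (0.10, adjusted p = 0.155). The change of -0.18 ± 0.072 in DDE against control had an adjusted p of 0.0589. It was called lower with the slide as a block and without DDE array 1, and was 0.05 with median centring. Of the other kept genes, Col6a3, Col13a1, Col22a1, Col23a1 and Col26a1 were not called in DDE against control or PXDDE against DDE, with changes from -0.20 to 0.36 and from 0.10 to 0.58. Col13a1, a transmembrane collagen, came closest, at 0.23 ± 0.091 (adjusted p = 0.0504) in DDE against control. In that comparison 10 of 21 alternatives called it higher, among them all 5 to the scaling or background correction, the replicate number as a block (adjusted p = 0.0441) and moderation with a trend (adjusted p = 0.0454). It was called higher in PXDDE against control (0.33 ± 0.091, adjusted p = 0.00652). Col22a1, whose probe was well above background on 1 control, 1 DDE and 4 PXDDE arrays, is the second gene that passed through PXDDE only. The signs of Col22a1, Col23a1 and Col26a1 were not stable in any comparison, as each turned in 1 alternative or more.

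**Figure D3:**
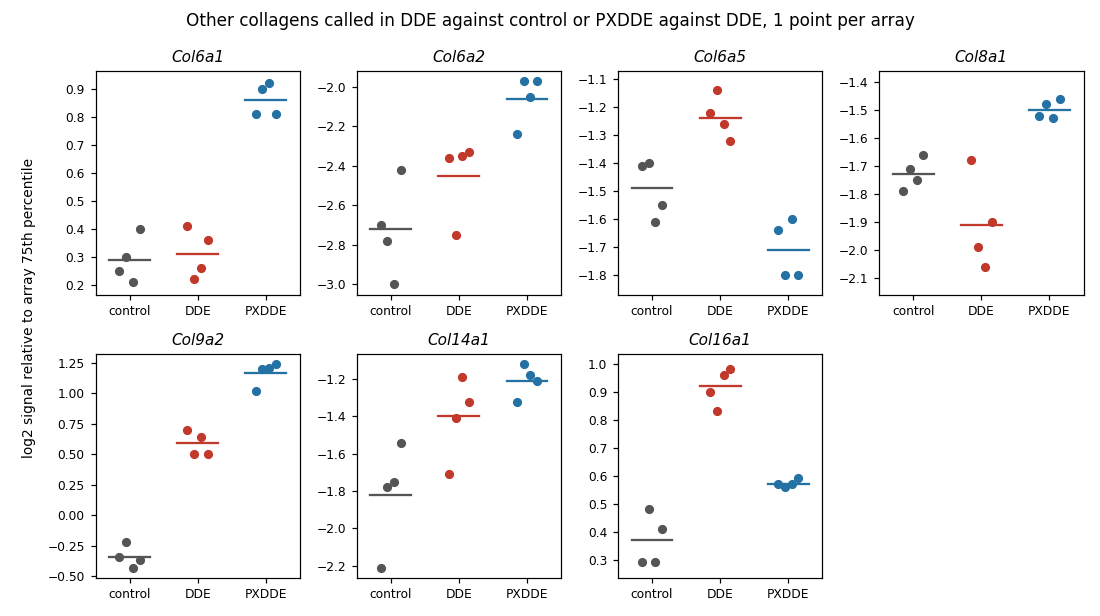
Level on every array of the 7 collagen genes outside the fibrillar and basement membrane classes that were called in DDE against control or PXDDE against DDE, as log2 signal relative to the array's 75th percentile; points are arrays and lines group means, n = 4 per group. Col9a2 steps up from control to DDE to PXDDE, Col16a1 and Col6a5 are highest in DDE, and Col6a1, Col6a2 and Col8a1 are highest in PXDDE.

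For 5 genes more than 1 probe was kept, though the probes of a gene did not always lie in separate stretches of the transcript. The 3 Col1a1 probes gave log2 changes of 1.02, 0.94 and 1.28 in DDE against control, and -0.40, -0.37 and -0.25 in PXDDE against DDE, and each of the 6 changes was called in a fit over all 27098 kept probes (adjusted p from 2.42e-07 to 2.47e-08 and from 0.0225 to 4.47e-05). A pair of them were each printed in 10 spots per array, with a median SD between spots of 0.10 and 0.089, and they overlap each other in the transcript, so they are not independent measures. The repeat probe of Col5a3 gave -0.36 ± 0.21 (adjusted p = 0.177) in DDE against control and 0.54 ± 0.21 (adjusted p = 0.055) in PXDDE against DDE. Those changes have the signs of the brighter Col5a3 probe (-0.35 and 0.72) and were not called, with an SD within groups of up to 0.38. With the probes of a gene averaged, the change of Col5a3 in PXDDE against control was no longer called (adjusted p = 0.0712). The probes of Col13a1 disagreed in DDE against control, with 0.23 and -0.28 for the probes bright enough on every array, neither of them called. The remaining Col13a1 probe was dim in control and DDE. For Col23a1 the dimmer kept probe was called higher in PXDDE than in DDE (0.60 ± 0.18, adjusted p = 0.017) and than in control (0.43 ± 0.18, adjusted p = 0.0468), while the probe that stood for the gene was called in neither (0.14 and 0.12). That dimmer probe was well above background on 2 control, 2 DDE and 4 PXDDE arrays. It was thus kept through PXDDE alone, and its calls are no test of a rise there. The Col26a1 probes differed in sign in PXDDE against DDE, at 0.12, -0.22 and -0.40, and were not called. The probes that gave 0.12 and -0.22 overlap in position.

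**Figure D4:**
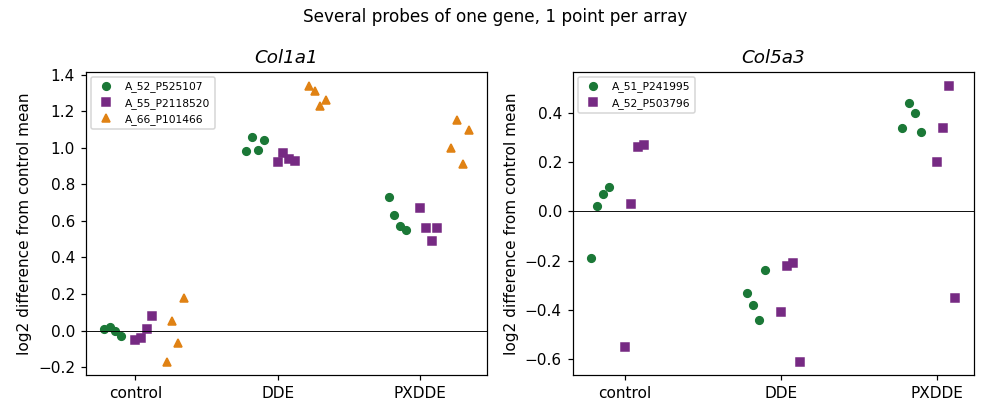
Kept probes of Col1a1 (3 probes) and Col5a3 (2 probes) on every array, as the log2 difference from the probe's own mean over the control arrays; colours and symbols mark probes. All Col1a1 probes are highest in DDE and lower in PXDDE, and the Col5a3 repeat probe A_52_P503796 spreads more widely within groups than A_51_P241995.

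Arrays lay on 5 slides, each its own scan pass, and 3 slides held both groups of each comparison. Within them the collagen genes had median differences of 0.16 to 0.28 in DDE against control, 0.16 to 0.31 in PXDDE against DDE and 0.22 to 0.35 in PXDDE against control. Col1a1 differed by 0.97 to 0.98 within slides in DDE against control and by -0.45 to -0.30 in PXDDE against DDE. Col9a2 differed by 0.84 to 0.92 and 0.52 to 0.57, and Col4a1 by 0.38 to 0.53 and 0.35 to 0.58. With the slide as a block, 13, 16 and 16 collagen genes were called in the 3 comparisons.

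Collagen output also depends on the enzymes that make, trim and remove it. Of 117 tested genes in 7 lists of that pathway, 39 were higher and 31 lower in DDE than in control, and 43 higher and 19 lower in PXDDE than in DDE. With median centring these splits were 58 and 15, and 60 and 11, where all genes also tilted to higher (9019 higher and 2078 lower, then 6476 and 3295). In the main setting, 24% of all genes tested were called higher and 26.3% lower in DDE against control, and 20.2% and 29.7% in PXDDE against DDE. Counts of a list near these shares show nothing particular to the list. Of 20 tested genes of collagen biosynthesis and folding, 12 were higher and 4 lower in DDE than in control (median 0.26), and 10 were higher and 0 lower in PXDDE than in DDE (median 0.19). Plod1, a lysyl hydroxylase of new chains, rose 1.48-fold and then 1.24-fold (adjusted p = 9.81e-06 and 0.000864), and Crtap, part of the prolyl hydroxylase complex of the secretory pathway, rose 1.46-fold and then 1.18-fold (adjusted p = 1.9e-06 and 0.000825). Colgalt1, which adds galactose to collagen, rose 1.43-fold in DDE (adjusted p = 6.59e-06), with a change of -0.03 in PXDDE against DDE. P4ha1, a prolyl hydroxylase subunit, rose 1.29-fold in DDE (adjusted p = 0.00644). Fkbp10, a folding helper for type I procollagen, fell 1.35-fold in DDE (adjusted p = 0.000392, not called in 1 of the 5 alternatives to the scaling or background correction, called scaling alternatives here) and was 1.85-fold higher in PXDDE than in DDE (adjusted p = 1.57e-06). Serpinh1, the collagen chaperone HSP47, was 1.32-fold lower in DDE (adjusted p = 0.00272, not called in 1 of 5), with 0.14 ± 0.086 in PXDDE against DDE (adjusted p = 0.21).

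Of 9 tested genes of processing and crosslinking, 3 were higher and 3 lower in DDE than in control (median -0.03), and 2 higher and 3 lower in PXDDE than in DDE (median 0.27). Tgm2, a transglutaminase that crosslinks matrix proteins, had the direction of Col1a1, 1.73-fold higher in DDE (adjusted p = 7.98e-08) and then 1.25-fold lower in PXDDE (adjusted p = 0.000104). Pcolce, which speeds the trimming of procollagen tails, had the direction of Col5a3, 1.37-fold lower and then 1.55-fold higher (adjusted p = 1.57e-06 and 1.12e-07). Adamts14, a procollagen protease, was 1.30-fold lower (adjusted p = 0.000307, not called in 1 of 5 scaling alternatives) and then 1.91-fold higher (adjusted p = 3.06e-07). Loxl2, a lysyl oxidase that crosslinks collagen, was 1.43-fold higher in DDE (adjusted p = 0.0119), and Lox was not well above background on all 4 arrays of any group.

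Among 17 genes of collagen degradation and uptake, 7 were higher and 3 lower in DDE than in control (median 0.06), and 6 higher and 5 lower in PXDDE than in DDE (median 0.02). Mmp19, a matrix metalloproteinase, was 1.91-fold higher in DDE (adjusted p = 2.12e-06). Mmp12, a metalloproteinase of macrophages, was 1.49-fold higher in DDE and then 2.91-fold lower in PXDDE (adjusted p = 0.000142 and 5.86e-08). Timp1, an inhibitor of metalloproteinases, had a change of 0.06 ± 0.068 in DDE against control (adjusted p = 0.499) and was 1.58-fold lower in PXDDE than in DDE (adjusted p = 1.29e-05). Mmp2 was called in neither (0.21 and 0.02, adjusted p = 0.413 and 0.934), and Mmp13 did not pass the filter. Of 12 collagen receptors, 4 were higher and 3 lower in DDE (median -0.10), then 3 higher and 3 lower (median -0.06). The receptor kinase Ddr1 was 1.41-fold higher in DDE (adjusted p = 0.000223) and its relative Ddr2 1.48-fold lower (adjusted p = 0.000263). Lair1, an inhibitory receptor of leukocytes that binds collagen, fell 1.59-fold and then 1.61-fold (adjusted p = 1.75e-05 and 1.42e-05).

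Of 14 partners of basement membrane collagens, 4 were higher and 5 lower in DDE than in control (median -0.12), and 7 higher and 2 lower in PXDDE than in DDE (median 0.19). The laminin chains Lama2 and Lamc1 were higher in both, as Col4a1 was. Lama2 rose 1.96-fold and then 1.44-fold (adjusted p = 1.55e-07 and 2.24e-05), and Lamc1 1.79-fold and then 1.54-fold (adjusted p = 1.43e-06 and 1.4e-05). Nid1, nidogen, which links laminin to type IV collagen, had a change of -0.02 ± 0.06 (adjusted p = 0.848) and was then 1.41-fold higher in PXDDE (adjusted p = 4.29e-05). Hspg2, perlecan, was 1.23-fold lower in DDE (adjusted p = 0.00117, not called in 1 of 5 scaling alternatives) and 1.41-fold higher in PXDDE than in DDE (adjusted p = 3.42e-05). Lamb3, a laminin chain of epithelia, was 2.74-fold lower in DDE (adjusted p = 4.42e-06). Beside it, 9 of 12 markers of stratified epithelium, a tissue of skin and gullet, were lower in DDE and 1 higher (median -2.67), and the part of that tissue in the fall of Lamb3 was not tested.

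Of 22 matrix partners of fibrils, 4 were higher and 6 lower in DDE (median -0.06), then 5 higher and 3 lower (median 0.06). Lum, a small proteoglycan that spaces fibrils, was 1.45-fold lower in DDE and a further 1.42-fold lower in PXDDE (adjusted p = 0.000992 and 0.00141). Dcn, decorin, was 1.18-fold lower and then 1.22-fold lower (adjusted p = 0.0419 and 0.0208), and each of these calls held in 1 of 5 scaling alternatives. Postn, periostin, was 1.27-fold higher in DDE (adjusted p = 0.00106), and Fn1, fibronectin, changed by -0.01 and 0.16 (adjusted p = 0.907 and 0.0591). Of 23 inducers of collagen and their receptors, 5 were higher and 7 lower in DDE (median -0.09), then 10 higher and 3 lower (median 0.16). Tgfb2, a growth factor that induces collagen, was 2.18-fold higher and then 1.70-fold higher (adjusted p = 7.82e-07 and 1.56e-05). Tgfb1 changed by 0.10 ± 0.15 (adjusted p = 0.614) and was then 1.32-fold higher (adjusted p = 0.0418, not called in 1 of 5 scaling alternatives). Pdgfa, a ligand for receptors of stellate cells, was 1.28-fold and then 1.33-fold higher (adjusted p = 0.000111 and 3.52e-05), and the receptor gene Pdgfrb was not called (-0.33 and 0.27, adjusted p = 0.25 and 0.345). Over the main setting and the 5 scaling alternatives together, the median of the biosynthesis list ran from 0.24 to 0.49 in DDE against control. In PXDDE against DDE it ran from 0.19 to 0.33. The medians of the other 6 lists crossed 0 in the first comparison. In the second, those of degradation, receptors and fibril partners crossed 0, and that of the basement membrane partners ran from 0.12 to 0.33.

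**Figure D5:**
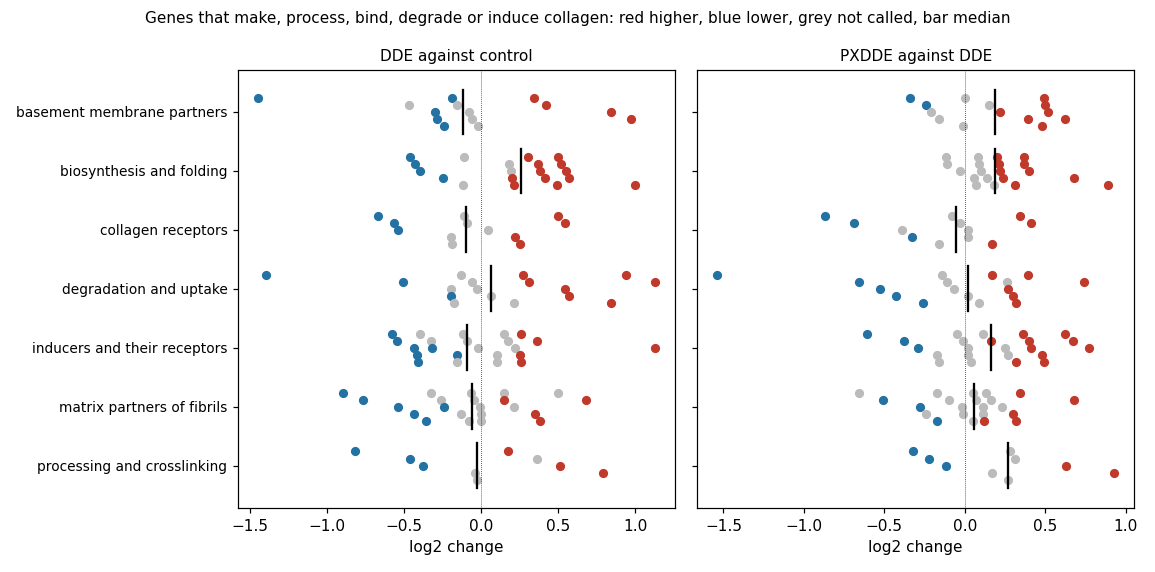
Log2 changes of the tested genes of 7 lists of the collagen pathway, 1 point per gene, for DDE against control on the left and PXDDE against DDE on the right; red points were called higher, blue lower, grey not called, and black bars are list medians. The biosynthesis list has its median above 0 in both, at 0.26 and 0.19, and no blue point on the right.

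Markers of the cells that make collagen, and of other cells, are given here beside the collagen changes. The shares over all genes were 24% higher and 26.3% lower in DDE against control, and 20.2% and 29.7% in PXDDE against DDE. Of 17 markers of hepatic stellate cells and myofibroblasts, 0 were higher and 9 lower in DDE than in control (median -0.24), and 2 were higher and 8 lower in PXDDE than in DDE (median -0.05). Their mean level was 1.63 to 1.75 in control, 1.41 to 1.45 in DDE and 1.24 to 1.35 in PXDDE, and none was below background on all arrays. Over the scaling alternatives 0 to 4 of them were higher and 3 to 9 lower in DDE, and their median in PXDDE against DDE ran from -0.16 to 0.09. Here and in the next paragraph, such ranges of list counts and list medians include the main setting. Des, desmin, was 2.19-fold lower in DDE (adjusted p = 8.51e-08), Acta2, the actin of myofibroblasts, 1.26-fold lower (adjusted p = 0.0103, not called in 1 of 5 scaling alternatives), and Lrat, which stores retinol in stellate cells, 1.16-fold lower (adjusted p = 0.0326, called in 1 of 5). Des is also made by muscle, and 12 skeletal muscle markers were all lower in DDE than in control (median -1.39, mean level 4.48 to 4.52 against 3.13 to 3.29), with 11 lower again in PXDDE (2.75 to 2.85). Of 10 portal fibroblast and mesothelium markers, 0 were higher and 5 lower, then 3 higher and 4 lower, with mean levels of -1.59 to -1.49, -1.90 to -1.81 and -1.92 to -1.85; over the scaling alternatives 2 to 5 were lower in DDE. Of 8 smooth muscle markers, 0 were higher and 6 lower, then 5 higher and 1 lower, with mean levels of 0.92 to 0.99, 0.49 to 0.66 and 0.68 to 0.79. Over the scaling alternatives 1 to 6 of the smooth muscle markers were lower in DDE and 4 to 6 higher in PXDDE than in DDE. Myocd and Lmod1 were not well above background on any array, and Acta2 and Tagln are also in the stellate list.

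Endothelial markers, of cells that make basement membrane collagens, were 1 higher and 1 lower of 16 in DDE and then 4 higher and 2 lower, with mean levels of 0.95 to 1.00, 0.95 to 0.97 and 0.95 to 1.00; 1 to 10 were higher in DDE over the scaling alternatives. Kupffer cell and macrophage markers fell in 11 of 13 in DDE and in 11 of 13 again in PXDDE, from a mean level of 1.88 to 1.93 to 1.54 to 1.61 and 1.16 to 1.24; over the scaling alternatives 2 to 11 and 9 to 11 were lower. Hepatocyte markers, 13 in all and all above background, were at 7.06 to 7.12, 6.85 to 7.08 and 6.99 to 7.01, so the defining markers of liver were present. Markers of other tissues also varied with group, and where their RNA came from was not tested. All 17 pancreatic acinar markers were higher in PXDDE than in DDE (mean level 6.24 to 6.29 against 3.78 to 3.89, and 4.08 to 4.14 in control). The 8 adrenal cortex markers were all lower in DDE (-2.31 to -2.22) than in control (0.87 to 0.99) and all higher in PXDDE (1.5 to 1.6), with Cyp11b2 dim on every array. Over the scaling alternatives 6 to 8 of the adrenal markers were called in each of these comparisons. Adipocyte markers were 2 higher and 5 lower of 10 in DDE, then 3 higher and 3 lower, with mean levels of 0.89 to 1.05, 0.23 to 0.35 and 0.44 to 0.55. Adipoq, the fat cell hormone adiponectin, changed by -2.0 and then 1.71 (adjusted p = 2.12e-10 and 6.39e-10), and Cfd, adipsin, by -2.51 and then 0.95 (adjusted p = 2.95e-11 and 1.03e-07). Retn had the same directions and was called both times in all 5 scaling alternatives (-2 to -1.52, then 0.63 to 1.11). The remaining adipocyte markers did otherwise, and the list medians were -0.35 and then 0.03. Cidec was called higher and then lower in all 5 scaling alternatives (0.44 to 0.8, then -0.71 to -0.5), and Lipe was called lower both times. The mean level of the stratified epithelium markers was -1.31 to -1.19 in control, -2.87 to -2.65 in DDE and -2.99 to -2.90 in PXDDE, with Dsg3 dim on every array. Of 8 cholangiocyte markers, 2 were higher and 1 lower in DDE, then 4 higher and 1 lower. Of 5 Schwann cell and nerve markers, 3 were higher and 2 lower, then 2 higher and 2 lower. Only 2 of 9 kidney tubule markers passed the filter, Kap and Aqp2. Kap was lower in DDE (-2.52) and then higher in PXDDE (3.24), and Aqp2 was called in neither comparison (0.3 and -0.26). The part of these tissues and cells in the collagen changes was not tested. In bulk liver RNA, fewer cells of a type and less RNA per cell cannot be told apart.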

How the data were processed

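Liver RNA was hybridised to 12 arrays, 1 sample per array, and the groups are those of the labels, which do not say whether each sample is a separate animal. Per the file headers, the deposited processed signal is a background-corrected, detrended intensity. RMA, limma and version 11.5.1.1 of Agilent Feature Extraction are named, with no role, in the submitters' processing notes. The authors' deposited value table, on a log2 scale found by comparison with the scanner values (correlation 0.994 to 0.9956, column medians 5.3243 to 5.3479), served as an alternative, and how it was made is not given in the sources used here. Probe names, gene names, sequences and mm9 coordinates are those of the files; whether these laboratory mouse probes match Mus spretus transcripts was not checked.

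The members and lists were chosen with earlier results of these data known. From 62976 spots per array, 3671 control spots and 102 to 177 outlier spots were left out. Levels are log2 intensity minus the array's log2 75th percentile, averaged over spots of a probe. A probe was well above background on an array where over 0.5 of its spots were. The brightest kept probe stood for its gene. Limma 3.58.1 (R 4.3.3, with the package data.table at 1.17.8) fitted group over all 12 arrays, with 9 residual degrees of freedom and calls at an adjusted p under 0.05. Where a gene was dim on every array of a group, its fold is a bound against the lowest signal well above background.

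Genes were named by rule: each kept fibrillar and basement membrane gene, each other collagen gene called in DDE against control or PXDDE against DDE, up to 4 pathway or marker genes per list with the smallest p, and a set named whatever their values. Not every gene the rule gives is printed. The fit was tested on simulated data for DDE against control over 18678 genes. Of 50 genes each changed by 0.25, 0.5, 1 and 2 (log2), 34%, 74%, 96% and 98% were called, with 9 unchanged genes called. Only those genes were changed in that run, whereas 24% of genes were called higher and 26.3% lower in the data. The share called in data with that many changes was not tested. Alternatives were quantile normalisation, median centring, normexp background correction (offset 50) alone or with quantile normalisation, the deposited values, averaged probes per gene, other filters for dim probes, only the groups compared, moderation with a trend, outlier spots kept, replicate number or slide as a block, and each array left out.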

Additional observations from a re-analysis of the deposited data

Results flagged for a closer look

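Among 72 sets of 4 arrays (24 collagen genes in 3 groups), 6 held a lone value whose gap to the nearest other array exceeded Dixon's critical value, 0.829 of the range for 4 values. Chance flags about 1 in 20 such groups. Col5a1 on PXDDE array 3 stood at -0.47, with the others between -0.54 and -0.53, and Col9a2 on PXDDE array 1 at 1.02, with the others from 1.20 to 1.24. Both gaps are small beside the differences between groups. Col6a2 on DDE array 2 stood at -2.75, with the others from -2.36 to -2.33. In dim genes, Col6a3 on PXDDE array 4 stood at -4.02 (others -3.30 to -3.24), Col15a1 on control array 2 at -4.37 (others -4.78 to -4.77), and Col23a1 on DDE array 3 at -4.16 (others -3.65 to -3.58). The lone values lay on 6 different arrays.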

How the results depend on the processing

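The counts of collagen genes called stayed within 1.5 times of 12, 16 and 16 in every alternative, and leaving out each array in turn gave 10 to 13, 15 to 17 and 16 to 17 for DDE against control, PXDDE against DDE and PXDDE against control. With the replicate number as a replicate block, 12, 16 and 16 were called. After each gene's group mean was taken out, same-numbered arrays of different groups correlated at -0.37 to 0.13. Not all were above 0.1, so the numbers were not taken to pair the arrays. Totals of pathway genes called also stayed within 1.5 times of 70, 62 and 84, but their split by direction did not: median centring moved it from 39 higher and 31 lower to 58 and 15, from 43 and 19 to 60 and 11, and from 54 and 30 to 83 and 18. The split of all genes moved too, from 4482 and 4921 to 9019 and 2078, from 3781 and 5539 to 6476 and 3295, and from 5893 and 7349 to 10315 and 3802. Without a filter on dim probes, 44 collagen genes were tested, so dim genes left out elsewhere came in. Of these 44, 15 were higher and 6 lower in PXDDE against control. The shares over all genes were not counted in that setting. Of 44 collagen changes called, 2 turned their sign in 1 alternative or more, and of 28 not called, 18 did. Those that were called in either direction are Col15a1 with normexp in PXDDE against DDE (-0.01) and in PXDDE against control (-0.19), Col23a1 with normexp in PXDDE against control (-0.19), Col3a1 with median centring in PXDDE against control (0.37), and Col6a5 in PXDDE against control with median centring (0.16) and in the deposited values (0.01). The other turned signs, of Col3a1, Col6a1, Col6a3, Col7a1, Col8a1, Col22a1, Col23a1 and Col26a1, were called in neither direction. The cause was not tested. Dim genes such as Col15a1, Col22a1 and Col23a1 are limited by signal over background, and 4 arrays a group limit precision for all.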
